A study of Mus musculus with 15 samples.

Results

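The caudal ganglionic eminence (CGE) programme was followed in migrating cortical interneurons of the medial ganglionic eminence (MGE) through 10 genes, chosen by name: *Sp8*, *Sp9*, *Nr2f1*, *Nr2f2*, *Prox1*, *Npas1*, *Npas3*, *Adarb2*, *Nr2e1* and *Reln*. All 10 were present among the 26835 genes of the *Lhx6* table and among the 25714 genes of the *Mtg8* table, and all 10 passed the filter on low values (a mean normalized count of at least 10) that left 16727 and 16132 genes tested. RNA was sequenced from YFP-positive cells sorted from the cortex of single mouse embryos of mixed C57BL6/CBA background at embryonic day 14.5. The *Lhx6* comparison had 4 control embryos (Lhx6+/+) and 5 mutants (Lhx6-/-), which the methods call littermates, and the *Mtg8* comparison had 3 control embryos (Mtg8+/+) and 3 libraries labelled *Mtg8* mutant (Mtg8-/-). Every embryo, control or mutant, carried an Nkx2-1-Cre transgene (given as Nkx2-1-CreTg for the controls) and R26R-YFP fl/fl, so that YFP marks cells with an MGE history. Both mutations were germline and were present in all cells of the embryo, not only in the sorted ones. The comparison asks which parts of the CGE programme appear in MGE-lineage cells of embryos labelled as *Lhx6* or *Mtg8* mutants.

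Cortical interneurons arise mainly in the MGE and the CGE. MGE precursors express NKX2-1 and then the LIM homeodomain factor LHX6 and give rise to somatostatin and parvalbumin cells, while CGE precursors lack both factors and give rise to VIP, reelin and other HTR3A cells. The CGE transcription factors named here fall into families. *Sp8* and *Sp9* encode zinc-finger factors of the SP family, *Nr2f1* and *Nr2f2* encode the orphan nuclear receptors COUP-TFI and COUP-TFII, *Nr2e1* encodes the orphan receptor TLX of neural precursors, *Npas1* and *Npas3* encode bHLH-PAS factors, and *Prox1* encodes a homeobox factor that CGE cells keep after they leave the eminence. The other 2 genes are effectors or markers. *Adarb2* encodes ADAR3, a member of the RNA-editing adenosine deaminase family without known editing activity and a broad marker of mature CGE interneurons, and *Reln* encodes reelin, a secreted glycoprotein that also comes from Cajal-Retzius cells and from some somatostatin cells. The study's arrays compared MGE and CGE cortical interneurons of reporter mice, and its example comparison sets different embryonic ages side by side. Of the 10 genes, 8 were on the CGE-enriched list and 0 on the MGE-enriched list, *Sp9* and *Reln* being on neither.

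Depth was 12218422 to 22053032 reads per library. *Lhx6* was 5812 to 8441 normalized counts in its controls and 236 to 495 in its mutants. *Runx1t1*, the gene of MTG8, was 7938 to 10265 normalized counts in *Mtg8* controls and 12250 to 13934 in the libraries labelled *Mtg8* mutant, higher in every one of them. In the *Lhx6* table it was 6394 to 8945 in controls and 12227 to 26527 in mutants, also without overlap. That total does not show whether the disrupted part of the gene was transcribed, and they are called here by what their labels say. Library names came in a dated and an undated style. The 4 *Lhx6* controls and *Lhx6* mutant 6 were undated and mutants 1, 2, 3 and 5 were dated. Name style and genotype can therefore be separated there only through mutant 6. With name style as a covariate the effect is that of mutant 6, and the controls and dated mutants give the spread. A call kept or lost under that setting rests on 1 library. Mutant 6 also shared the leading numbers of its name with controls 1 and 2, while the dated mutants shared theirs with no control. In the *Mtg8* table controls 1 and 2 and labelled mutant 2 were dated, with the same leading numbers, and control 4 and labelled mutants 3 and 4 were undated. Mutant 6 also had the highest summed count of 10 progenitor markers (14154, against 7398 to 11492 in the other mutants and 7571 to 8804 in controls) and stood apart for several of the genes below, whose values without it stand beside them.

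Promoter windows from 250 bases before to 50 bases after the RefSeq start site (build GRCm38.p6) were found for all 10 genes, 14 windows in all, because some genes have more than 1 start. They are shown for the gene with the largest gain in *Lhx6* mutants, for the gene with the largest loss and for *Sp8*, 5′ to 3′ on the strand of the gene. Capitals mark the motifs searched on both strands, which were TAATTA (the core read by LIM homeodomain factors), AGGTCA (a nuclear receptor core sequence) and GGGCGG (an SP-type GC box).
Adarb2, chr13:8202616-8202915, plus strand: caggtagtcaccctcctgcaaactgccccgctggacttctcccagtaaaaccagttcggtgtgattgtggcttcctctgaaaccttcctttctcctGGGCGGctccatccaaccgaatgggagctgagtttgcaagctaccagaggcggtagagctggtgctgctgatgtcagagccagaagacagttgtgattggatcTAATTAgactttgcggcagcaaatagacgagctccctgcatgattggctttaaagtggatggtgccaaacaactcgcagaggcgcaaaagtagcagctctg
Npas1, chr7:16476731-16477030, minus strand: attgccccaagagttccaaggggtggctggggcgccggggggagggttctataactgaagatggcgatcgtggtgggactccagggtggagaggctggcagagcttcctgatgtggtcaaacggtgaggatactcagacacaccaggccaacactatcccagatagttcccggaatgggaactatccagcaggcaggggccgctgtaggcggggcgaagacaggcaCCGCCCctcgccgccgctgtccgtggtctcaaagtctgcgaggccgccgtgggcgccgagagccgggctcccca
Sp8, most downstream start, chr12:118847309-118847608, plus strand: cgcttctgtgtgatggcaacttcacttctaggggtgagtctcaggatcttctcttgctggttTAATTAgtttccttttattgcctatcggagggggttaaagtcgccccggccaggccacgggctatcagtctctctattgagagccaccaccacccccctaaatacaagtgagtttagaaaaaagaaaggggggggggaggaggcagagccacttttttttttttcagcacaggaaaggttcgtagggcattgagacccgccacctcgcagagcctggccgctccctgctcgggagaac
TAATTA was found in 2 of the 14 windows, those of *Adarb2* (beginning at position -51 from the start site) and of the most downstream *Sp8* start (position -188), and in 5.29% of all 32851 promoter windows. AGGTCA occurred in 1 window, at the middle *Sp8* start, against 16.3% of all windows. GGGCGG occurred in 8 of the 14 windows, among them *Adarb2*, *Npas1*, *Sp9* and *Reln* with 6 copies, against 35.7% of all windows. The members' windows had a median GC content of 59.5%, against 52.7% for all windows. The deposited *Sp8* gene begins at the first RefSeq start, whose window held none of the 3 motifs. These are matches of letters and not measured binding.

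Before any mutant comparison, the CGE genes differed widely in level in the sorted control samples. On a scale of normalized counts per kb of exon in *Lhx6* controls, *Npas3* was highest at 375, followed by *Nr2f1* at 296 and *Sp9* at 278. Their ranges over 4 embryos were 333 to 434, 239 to 375 and 164 to 402 and overlapped, so that the order of these neighbours is not resolved. *Npas1* (161), *Nr2e1* (132), *Nr2f2* (83.6), *Reln* (69.7) and *Sp8* (45.3) lay in the middle, between the 69.4th and the 42.1st percentile of tested genes. *Prox1* followed at 10.1 per kb, with a range of 6.04 to 13.5 that did not reach *Sp8*, whose lowest control was 37.4. *Adarb2* was last at 2.40 per kb, the 2.90th percentile, with a range of 1.19 to 3.23. *Mtg8* controls gave the same first 3 and last 3 places, with *Npas3* at 591 per kb and *Adarb2* at 2.94. The places between differed. *Npas1* was 44.7 per kb in *Mtg8* controls, near its mean of 39.8 in *Lhx6* mutants. *Nr2e1* (52.2) and *Sp8* (18.3) were also lower than in *Lhx6* controls, and *Nr2f2* (111) and *Reln* (94.7) were higher. The tables were normalized separately, and levels were not tested across them. Transcripts of several CGE factors were present in the YFP-positive control samples, while *Adarb2* and *Prox1* were low among the tested genes. These samples also held transcripts of other cells. The summed count of 10 pyramidal markers was 15232 to 21009 in *Lhx6* controls and 12237 to 16648 in mutants, and that of 5 haemoglobin genes 5966 to 58615 and 1798 to 20401. Some of the CGE genes, *Nr2f1*, *Npas3*, *Nr2e1* and *Reln* among them, are also expressed in cortical cells outside the MGE lineage, and the part of such cells in the levels was not tested. In these bulk samples, more cells with a transcript and more transcript per cell cannot be told apart.

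**Figure D1:**
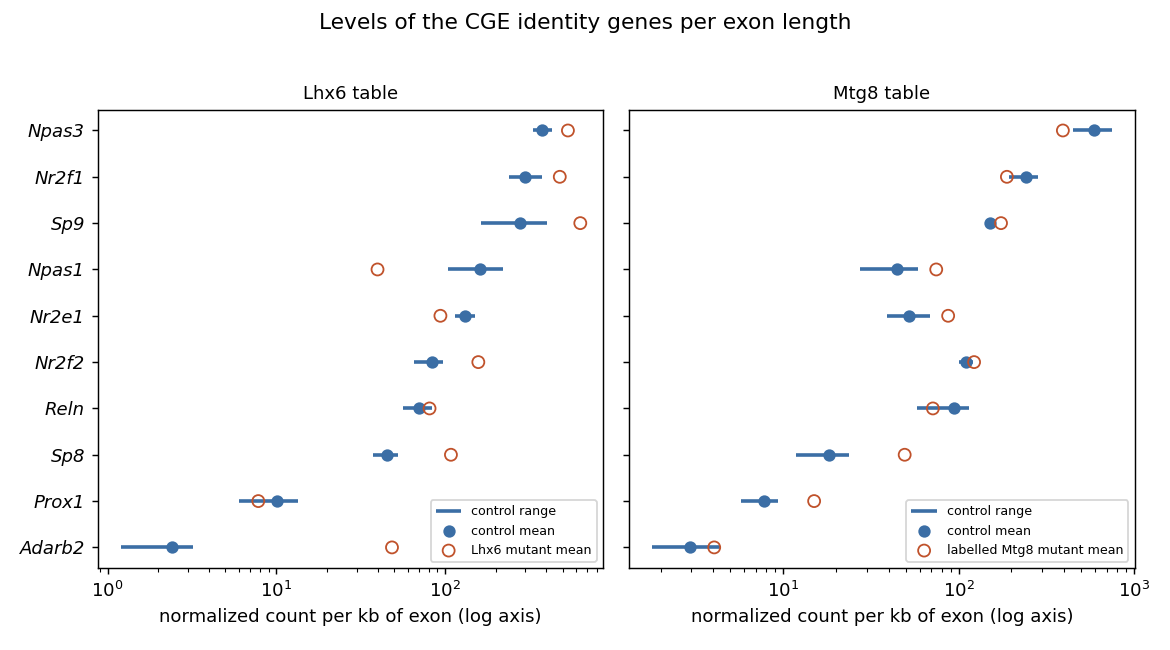
Mean level of each CGE gene as normalized count per kb of exon (log axis) in the *Lhx6* table (left) and the *Mtg8* table (right). Filled points are control means, bars the range over control embryos and open circles the mutant means. *Adarb2* moves from the lowest place (2.40) to 48.5 in *Lhx6* mutants, and *Npas1* moves down from 161 to 39.8, while in the *Mtg8* table *Adarb2* stays lowest (2.94 and 4.05).

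In *Lhx6* mutants 1 of the 10 CGE genes rose and 1 fell. *Adarb2* rose 20.2-fold and *Npas1* fell to 24.8% of its control mean, and these were the only 2 of the 10 genes called by limma's test on log2(normalized count + 1) at an adjusted p under 0.05, against 1.71% of all genes tested (1.03% higher and 0.682% lower). *Sp9* and *Nr2f2* were higher in every mutant than in every control with adjusted p-values just above the threshold. With *Adarb2*, 3 of the 10 genes had all mutants above all controls and 1, *Npas1*, all mutants below, against 3.19% and 3.03% of all genes. The median log2 fold change of the 10 genes was 0.54, against -0.04 for all genes tested. *Sp8*, *Nr2f1*, *Npas3* and *Nr2e1* differed between mutant libraries, and *Reln* and *Prox1* did not pass the test either. DESeq2's Wald test called 5 of the 10, with *Sp8*, *Sp9*, *Nr2f2* and *Adarb2* higher and *Npas1* lower, against 3.02% and 1.51% of all genes. The count of genes called by limma rested in part on 1 library. Without mutant 6 it was 6, with *Sp9*, *Nr2f2*, *Npas3* and *Adarb2* higher and *Npas1* and *Nr2e1* lower, against 2.05% and 0.883% of all genes. With name style as a covariate, when the effect is that of mutant 6 alone, it was 1, *Adarb2*, against 0.341% of all genes.

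**Figure D2:**
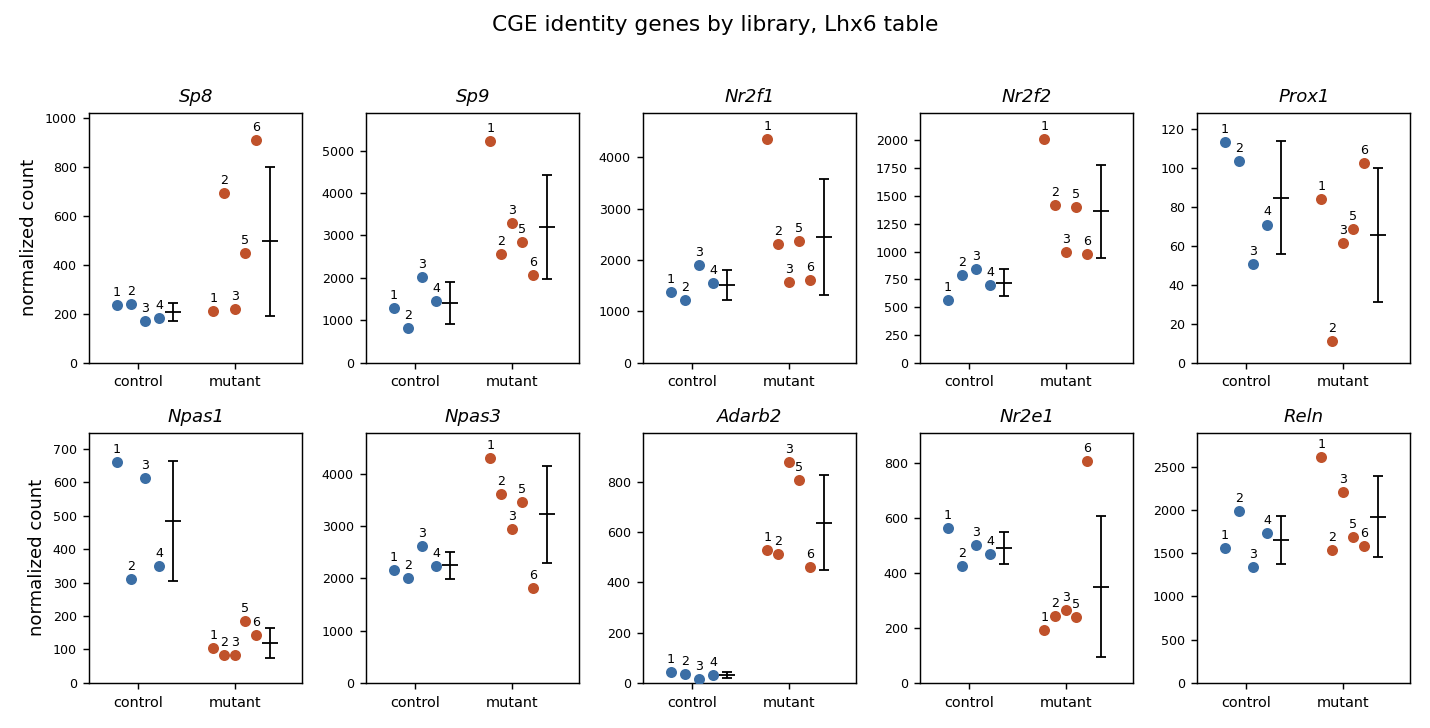
Normalized counts of the 10 genes in each library of the *Lhx6* table, on linear axes from 0 that differ between panels. Numbered points are embryos (4 controls, 5 mutants) and the bars beside them are mean and SD. *Adarb2*, *Sp9* and *Nr2f2* have all mutants above all controls, *Npas1* has all below, and mutant 6 lies apart from the other mutants for *Nr2e1* (805) and below the controls for *Npas3* (1808).

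*Adarb2* (plus strand of chromosome 13, 8202866 to 8768747) gave the clearest gain. Its normalized counts were 42.3, 36.3, 15.7 and 31.6 in controls 1 to 4 and 527, 513, 876, 806 and 461 in mutants 1, 2, 3, 5 and 6. The groups lay far apart, with the lowest mutant more than 10 times the highest control. Controls averaged 31.5 ± 11.4 (SD, n = 4) and mutants 637 ± 190 (SD, n = 5), and the log2 fold change was 4.33 (standard error 0.31, 95% interval 3.66 to 5.0, limma adjusted p = 6.90e-06). An exact two-sided permutation test gave p = 0.00794, the smallest that 4 against 5 embryos allow. No *Lhx6* control was dated. The gain over the undated controls was 4.43 for the dated mutants and 3.91 for mutant 6, the only undated mutant. It brought *Adarb2* from the 2.90th to the 43.3rd percentile of genes per kb. The editing enzymes of the same family gave no call, with log2 fold changes of 0.17 for *Adar* (adjusted p = 0.787) and -0.17 for *Adarb1* (adjusted p = 0.832). Of the 75-base stretches of *Adarb2* transcripts, 1.84% also occur in other genes.

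The bHLH-PAS pair gave opposite values. *Npas1* (minus strand of chromosome 7, 16455721 to 16477728) measured 661, 312, 614 and 351 normalized counts in controls and 104, 83.3, 83.8, 186 and 142 in mutants. Every mutant was below every control, and the controls themselves fell into a higher and a lower pair. The log2 fold change was -2.0 (standard error 0.31, 95% interval -2.67 to -1.34, limma adjusted p = 0.00383, exact permutation p = 0.00794). Mutant 6 differed from the controls by -1.68 and the dated mutants by -2.08, and with name style as a covariate the call was lost (adjusted p = 0.416). *Npas3* (plus strand of chromosome 12, 53248677 to 54072175) had 2166, 1999, 2609 and 2235 in controls and 4299, 3608, 2936, 3453 and 1808 in mutants. Mutants 1, 2, 3 and 5 were above all controls and mutant 6 was below them. Its log2 fold change was 0.47 (standard error 0.21, limma adjusted p = 0.388), and without mutant 6 it was 0.66 with adjusted p = 0.0336. The dimer partners of this family were not called, at 0.09 for *Arnt* (adjusted p = 0.861) and -0.29 for *Arnt2* (adjusted p = 0.443).

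The SP factors were higher on average, *Sp9* in all 5 mutants and *Sp8* mainly in mutants 2, 5 and 6, and neither was called by limma. *Sp9* (plus strand of chromosome 2, 73271925 to 73284706) measured 1296, 826, 2028 and 1452 normalized counts in controls and 5238, 2569, 3285, 2855 and 2062 in mutants. The groups did not overlap, but mutant 6 was barely above control 3. The log2 fold change was 1.19 (standard error 0.28, 95% interval 0.59 to 1.79, limma adjusted p = 0.0524, exact permutation p = 0.0159), and the adjusted p was 0.0259 without mutant 6 and 0.0326 without control 3. With name style as a covariate it was 0.63 (adjusted p = 1). *Sp8* (plus strand of chromosome 12, 118846329 to 118852576) had 234, 240, 170 and 181 in controls and 212, 692, 217, 446 and 908 in mutants. Mutants 2, 5 and 6 were above every control, and mutants 1 and 3 lay within the control range. Its log2 fold change was 1.03 (standard error 0.40, limma adjusted p = 0.291, exact permutation p = 0.0952). Without mutant 6 it was 0.76 (adjusted p = 0.301), and mutant 6 itself was 2.15 above the control mean. A Wald test in DESeq2, run on reads recovered from the table, called both, *Sp9* at 1.19 (adjusted p = 0.00279) and *Sp8* at 1.26 (adjusted p = 0.0393), and it called 4.53% of all genes. The broadly expressed relatives *Sp1* to *Sp4* were not called, with log2 fold changes from -0.18 for *Sp2* to 0.81 for *Sp1* (adjusted p = 0.813 and 0.244). *Sp8* and *Sp9* share no stretch of 75 bases, the read length, while 5.35% of the *Sp9* exon bases overlap *Cir1* on the opposite strand. The library kits do not mark strand, and *Cir1* itself had a log2 fold change of 0.35 (adjusted p = 0.551).

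The COUP-TF receptors were highest together in mutant 1. *Nr2f2* (minus strand of chromosome 7, 70351944 to 70366735), the receptor most closely tied to CGE cells, measured 563, 785, 840 and 696 normalized counts in controls and 2010, 1423, 992, 1399 and 981 in mutants. All mutants were above all controls, mutants 3 and 6 by the least. The log2 fold change was 0.88 (standard error 0.22, 95% interval 0.41 to 1.34, limma adjusted p = 0.0676, exact permutation p = 0.0238), with adjusted p = 0.0313 without mutant 6, 0.0385 without mutant 3 and 0.00427 by DESeq2. With name style as a covariate it was 0.46 (adjusted p = 1). *Nr2f1* (minus strand of chromosome 13, 78188973 to 78199757) had 1371, 1215, 1908 and 1546 in controls and 4350, 2312, 1575, 2365 and 1616 in mutants. Mutants 3 and 6 lay within the control range and mutant 1 far above the rest. Its log2 fold change was 0.61 (standard error 0.26, limma adjusted p = 0.363, exact permutation p = 0.0794), and it was 0.38 without mutant 1 (adjusted p = 0.434) and 0.12 with name style as a covariate (adjusted p = 1). Antisense or divergent genes overlap 7.46% of *Nr2f2* exon bases (*B130024G19Rik*, with means of 29.7 in controls and 17.3 in mutants) and 2.42% of *Nr2f1* exon bases (*A830082K12Rik*, with means of 533 and 405), both with lower means in mutants and not called.

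*Nr2e1* (minus strand of chromosome 10, 42561963 to 42583632), the receptor gene of neural precursors, split the mutants. It measured 563, 425, 499 and 467 normalized counts in controls and 192, 243, 265, 240 and 805 in mutants. Mutants 1, 2, 3 and 5 were all below the controls, and mutant 6 was above them. Its log2 fold change over all 5 was -0.70 (standard error 0.34, limma adjusted p = 0.422, exact permutation p = 0.143). Without mutant 6 it was -1.05 with adjusted p = 0.00893, and mutant 6 itself was 0.73 above the control mean. Mutant 6 also had the highest sum of the 10 progenitor markers (14154), and the part of that difference, and of name style, in its *Nr2e1* value was not tested.

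*Prox1* and *Reln* showed no call in *Lhx6* mutants. *Prox1* (minus strand of chromosome 1, 190118035 to 190170714) measured 113, 104, 50.7 and 71.0 normalized counts in controls and 84.1, 11.1, 61.5, 68.8 and 103 in mutants. Mutant 2 was far below the rest and the others lay within the control range. The log2 fold change was -0.59 with a 95% interval from -1.79 to 0.60 (limma adjusted p = 0.664), which allows changes of either direction, and without mutant 2 it was -0.053. *Reln* (minus strand of chromosome 5, 21884454 to 22344702) had 1562, 1988, 1335 and 1735 in controls and 2613, 1535, 2204, 1688 and 1581 in mutants. Mutants 1 and 3 were above all controls and the other 3 within their range. Its log2 fold change was 0.20 with a narrow 95% interval from -0.20 to 0.60 (limma adjusted p = 0.657), and it was 0.082 without mutant 1 and 0.10 without control 3. Cajal-Retzius cells are a rich source of *Reln*, and the summed count of 6 of their markers was 754 to 1466 in controls and 547 to 1130 in mutants, with 0 of the 6 called. *Trp73* (-0.87, adjusted p = 0.569) and *Lhx5* (-0.74, adjusted p = 0.566) had the largest log2 fold changes of the 6. Their defining marker *Trp73* was 35.9 to 122 in controls and 9.90 to 83.8 in mutants. The part of this variation in the *Reln* values was not tested.

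A call in the reelin pathway was found at a receptor. *Vldlr*, a reelin receptor gene, was 950 ± 81.9 normalized counts in controls (SD, n = 4) and rose to 2694 ± 653 in mutants (SD, n = 5), a log2 fold change of 1.47 (standard error 0.17, limma adjusted p = 0.000488), and all mutants were above all controls. The other receptor gene, *Lrp8*, had 0.18 (adjusted p = 0.675) and the intracellular adaptor gene *Dab1* had 0.26 (adjusted p = 0.576). *Vldlr* was the only gene called among the 13 tested relatives and partners of the 10 CGE genes, against 1.71% of all genes.

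Set side by side, the highest and the lowest mutant library differed between the CGE genes, and whether the genes varied together was not tested. Mutant 1 was the highest mutant for 5 genes, *Sp9*, *Nr2f1*, *Nr2f2*, *Npas3* and *Reln*, and the lowest for *Sp8* and *Nr2e1*. Mutant 6 was the highest for *Sp8*, *Prox1* and *Nr2e1* and the lowest for *Sp9*, *Nr2f2*, *Npas3* and *Adarb2*. Mutant 3, which had the highest *Adarb2*, had *Sp8* and *Nr2f1* at 0.09 and 0.08 above the control mean on the log2 scale. *Adarb2*, *Sp9* and *Nr2f2* were above the control mean in every mutant and *Npas1* was below it in every one. *Sp8* and *Nr2f1* were also above it in 5 of 5 mutants, though by little in some.

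**Figure D3:**
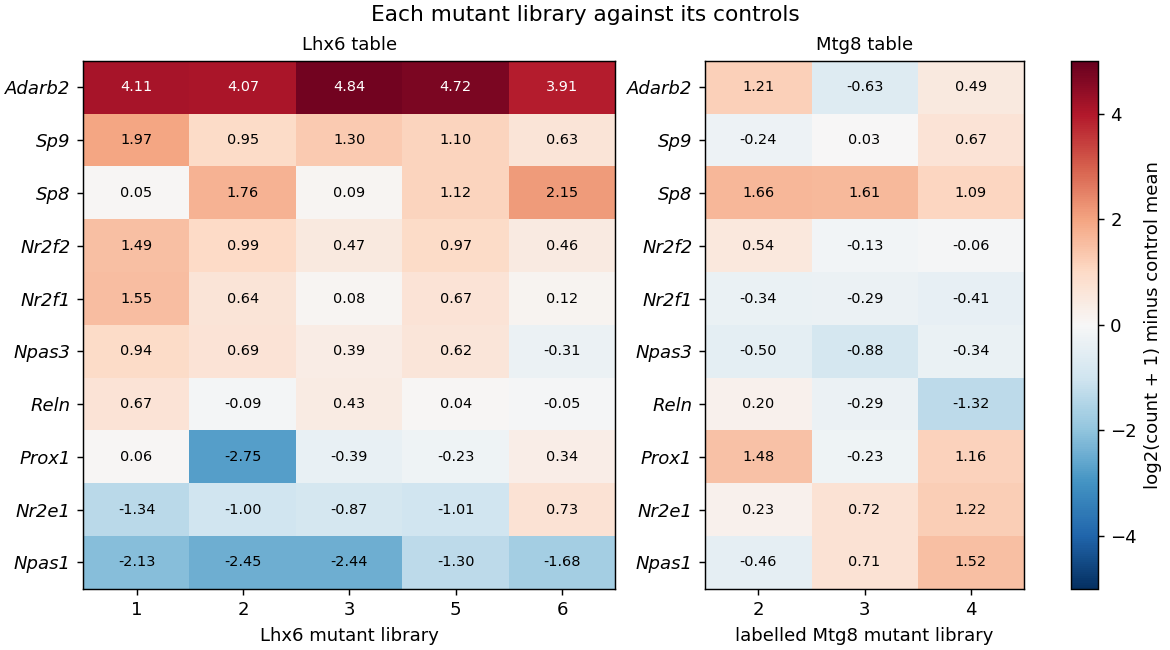
Difference of each mutant library from the mean of its controls on the log2(normalized count + 1) scale, for the *Lhx6* mutants (left) and the libraries labelled *Mtg8* mutant (right), each against the controls of its own table. Colour runs from blue (lower) to red (higher) and the value is written in each cell. *Adarb2* is 3.91 to 4.84 in the 5 *Lhx6* mutants and mixed in the *Mtg8* table, where *Sp8* is 1.09 to 1.66 in all 3.

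Other genes of CGE-derived subtypes changed in both directions. Of 18 such genes listed, 13 were tested, and of these 2 rose and 1 fell, against 1.03% and 0.682% of all genes. In the *Lhx6* table, calls of genes outside the 10 are given from the main test only. That test does not separate name style from genotype. *Cxcl14*, a chemokine gene of CGE interneurons, rose to 748 ± 268 normalized counts in mutants (SD, n = 5), against 28.6 ± 4.38 in controls (SD, n = 4), a log2 fold change of 4.60 (standard error 0.26, limma adjusted p = 1.03e-06). *Ndnf*, which marks neurogliaform cells, rose to 352 ± 133 in mutants, against 66.3 ± 31.8 in controls, a change of 2.42 (standard error 0.37, limma adjusted p = 0.00368). *Htr3a*, the serotonin receptor gene that defines the broad CGE class, fell to 78.8 ± 39.3 in mutants, against 222 ± 22.1 in controls, a change of -1.65 (standard error 0.37, limma adjusted p = 0.0451). The 10 genes without a call had log2 fold changes from -0.87 (*Synpr*, adjusted p = 0.374) to 0.81 (*Igf1*, adjusted p = 0.223). The median of the 13 genes was -0.03, against -0.04 for all genes tested. Of the CGE-enriched array list without the 10 genes, 47 of 657 tested genes rose and 3 fell, with a median of 0.13, and of the MGE-enriched list 19 of 571 rose and 62 fell, with a median of -0.18, again against 1.03% higher and 0.682% lower among all genes.

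The same libraries lost genes of MGE identity. Of 16 such genes, 7 fell and 0 rose, against 0.682% and 1.03% of all genes. Among those that fell, besides *Lhx6* itself, *Sst* went from 11499 to 1388 (log2 fold change -3.06, adjusted p = 9.01e-08), *Npy* from 4574 to 1575 (-1.61, adjusted p = 0.00153) and *Elfn1* from 345 to 94.6 (-1.89, adjusted p = 0.00434) in mean normalized counts. Genes of the lateral eminence, which shares *Sp8* and *Sp9* with the CGE, had a median of 0.82, and 1 of 11 rose, *Tshz1* (2.07, adjusted p = 0.000192), against 1.03% of all genes. The summed count of that list was 3256 to 3620 in controls and 5526 to 8231 in mutants, without overlap, and its part in the *Sp8* and *Sp9* values was not tested. Among 7 genes of interneurons as a class, *Dlx6* (1.66, adjusted p = 0.000979) and *Dlx5* (1.02, adjusted p = 0.000719) rose, against the same 1.03%. No gene was called among the tested markers of pyramidal neurons (10), progenitors (10), oligodendrocyte precursors (3), microglia (5), vessels (4) or blood (5). Of the progenitor markers 1, *Sox2*, had all mutants (1345 to 3900) above all controls (841 to 1147), against 3.19% of all genes. Of the pyramidal markers 1, *Fezf2*, had all mutants (669 to 915) below all controls (1002 to 1235), against 3.03%. The largest 2 differences in each of these lists were -0.56 for both *Neurod1* (adjusted p = 0.235) and *Fezf2* (adjusted p = 0.0748), 0.95 for *Sox2* (adjusted p = 0.115) and 0.44 for *Nes* (adjusted p = 0.521), and 2.45 for *Pdgfra* (adjusted p = 0.305) and 0.39 for *Olig1* (adjusted p = 0.776). Those of the microglial list were 1.34 for *P2ry12* (adjusted p = 0.572) and -0.63 for *C1qa* (adjusted p = 0.840). The mean normalized count of *C1qa* was yet higher in mutants, at 17.6 (range 0 to 37.1), against 12.9 (6.20 to 27.6) in controls. Those of the vascular list were 1.09 for *Pecam1* (adjusted p = 0.220) and 0.64 for *Kdr* (adjusted p = 0.851). Those of the blood list were -0.95 for *Hbb-bt* (adjusted p = 0.623) and -0.94 for *Hbb-bs* (adjusted p = 0.631).

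In the *Mtg8* table no gene passed the main test. Limma called 0 of the 10 genes and 0% of all 16132 genes tested. An unadjusted p under 0.05 was reached by 5.49% of all genes and by 3 of the 10, *Sp8*, *Npas3* and *Nr2e1*. EdgeR's quasi-likelihood test called 1 gene (0.00620%), which was not among the 10, and DESeq2's Wald test called 31 genes (0.191%), of which 1 was a CGE gene, *Sp8*. One of the 10 genes had all labelled mutants above all controls, against 4.68% of all genes, and 0 had them all below, against 5.52%. In either direction this is 1 of 10, near the 10.2% of all genes. The 1 was *Sp8*. With 3 against 3 embryos an exact permutation test cannot go below p = 0.1.

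*Sp8* measured 53.7, 109 and 88.0 normalized counts in *Mtg8* controls 1, 2 and 4 and 255, 247 and 172 in labelled mutants 2, 3 and 4. The lowest labelled mutant was above the highest control. In the separately normalized *Lhx6* table, the controls had 170 to 240 normalized counts of *Sp8*, and levels were not tested across the tables. Controls averaged 83.5 ± 27.8 and labelled mutants 225 ± 45.8 (SD, n = 3 each), a ratio of 2.69, and the log2 fold change was 1.45 (standard error 0.32, 95% interval 0.76 to 2.15, limma adjusted p = 0.636, exact permutation p = 0.1). DESeq2 gave 1.42 with adjusted p = 0.0241. The difference was 1.72 among the dated libraries, with 2 controls and 1 labelled mutant, and 1.22 among the undated ones, with 1 control and 2 labelled mutants, so that each rests on a group of 1 library. The summed progenitor markers were 5960 to 6733 in these controls and 7774 to 8775 in the labelled mutants, without overlap, and their part in the *Sp8* values was not tested.

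**Figure D4:**
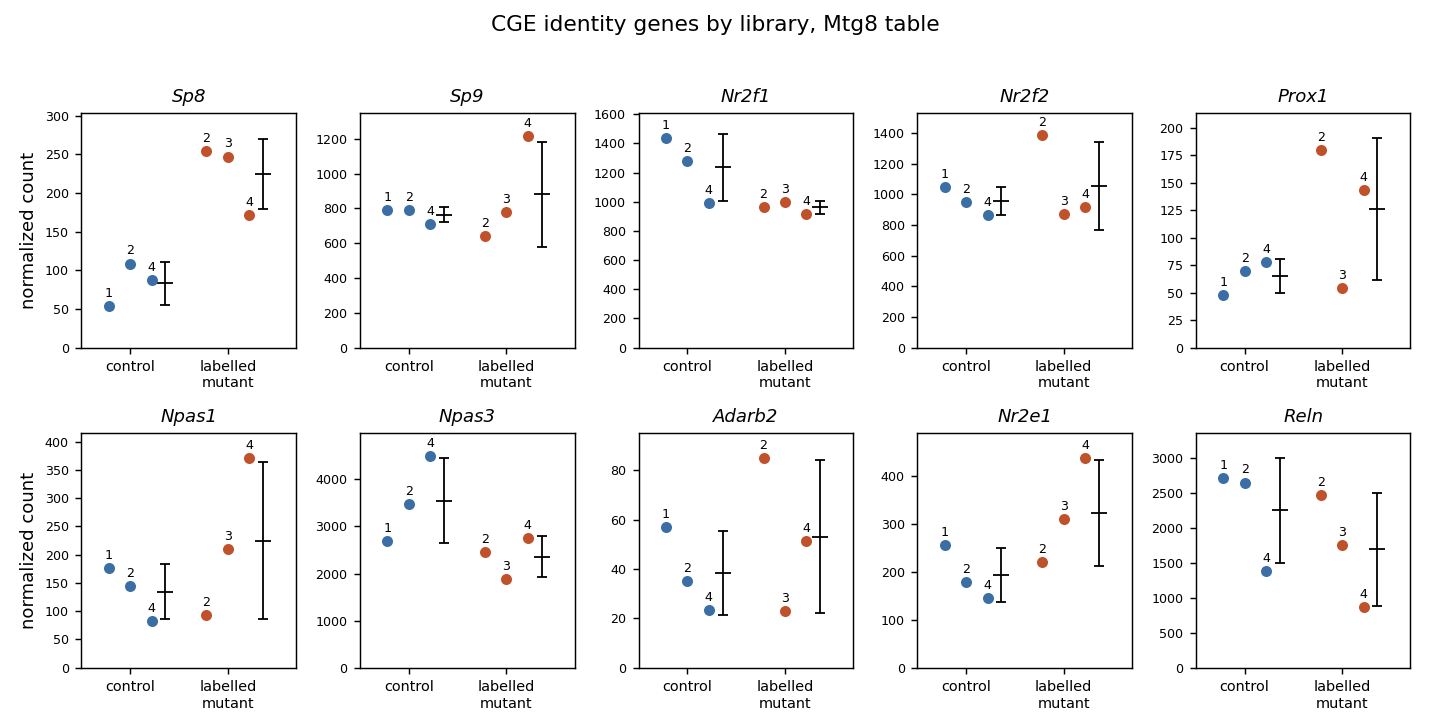
Normalized counts of the 10 genes in each library of the *Mtg8* table, on linear axes from 0 that differ between panels. Numbered points are embryos (3 controls, 3 labelled mutants) and the bars beside them are mean and SD. *Sp8* has all labelled mutants (172 to 255) above all controls (53.7 to 109), and the groups overlap for the other 9 genes.

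The genes whose groups separated in the *Lhx6* table gave overlapping groups here. *Adarb2* had 57.0, 35.2 and 23.5 in controls and 85.0, 22.98 and 51.2 in labelled mutants, overlapping groups with a log2 fold change of 0.36 and a 95% interval from -0.73 to 1.44. *Npas1* had 177, 145 and 82.2 in controls and 92.9, 210 and 370 in labelled mutants, a change of 0.59 with an interval from -0.38 to 1.57. *Sp9* had 789, 790 and 712 in controls and 643, 780 and 1218 in labelled mutants, a change of 0.15 with an interval from -0.38 to 0.69. *Nr2f2* had 1046, 952 and 865 in controls and 1388, 868 and 916 in labelled mutants, a change of 0.12 with an interval from -0.37 to 0.61. By name style, the difference of *Npas1* was -0.78 among dated and 1.75 among undated libraries, and that of *Sp9* -0.30 and 0.45. Those of *Adarb2* (0.91 and 0.53) and *Nr2f2* (0.47 and 0.04) were positive in both, and each value rests on a group of 1 library. These differences also moved with single libraries. That of *Npas1* was 0.13 without labelled mutant 4, 0.27 without control 4 and 1.12 without labelled mutant 2. That of *Adarb2* was -0.071 without labelled mutant 2, 0.054 without control 4, 0.68 without control 1 and 0.85 without labelled mutant 3. *Sp9* gave -0.11 without labelled mutant 4 and 0.35 without labelled mutant 2, and *Nr2f2* ranged from -0.093 without labelled mutant 2 to 0.24 without labelled mutant 3. The tables were normalized separately and the 2 effects were not tested against each other.

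Of the remaining genes, *Nr2f1* (1440, 1278 and 990 in controls, 963, 1001 and 918 in labelled mutants) and *Npas3* (2693, 3472 and 4487, then 2449, 1890 and 2747) were below their control means in all 3 labelled mutants. Their log2 fold changes were -0.35 (95% interval -0.79 to 0.10) and -0.57 (-1.06 to -0.09), and 1 labelled mutant of each overlapped the controls. *Nr2e1* (256, 179 and 146, then 221, 311 and 440) was above its control mean in all 3, by 0.72 (0.05 to 1.39). *Prox1* (48.1, 69.3 and 78.3, then 180, 54.2 and 144) was higher in labelled mutants 2 and 4 only, with a change of 0.80 (-0.12 to 1.73). *Reln* (2715, 2645 and 1383, then 2468, 1754 and 861) was lowest in labelled mutant 4 and second lowest in control 4, with a change of -0.47 (-1.25 to 0.30). The limma adjusted p-values of these 5 genes were 0.859 to 0.878. Among dated and undated libraries *Nr2e1* was 0.04 and 1.34 and *Prox1* 1.62 and 0.17, while *Nr2f1*, *Npas3* and *Reln* were negative in both. Single libraries weighed on these values too. *Reln* was -0.047 without labelled mutant 4, -0.30 without control 1, -0.79 without control 4 and -0.81 without labelled mutant 2. *Prox1* was 0.46 without labelled mutant 2 and 1.32 without labelled mutant 3, *Nr2f1* -0.23 without control 1 and *Nr2e1* 0.47 without labelled mutant 4.

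**Figure D5:**
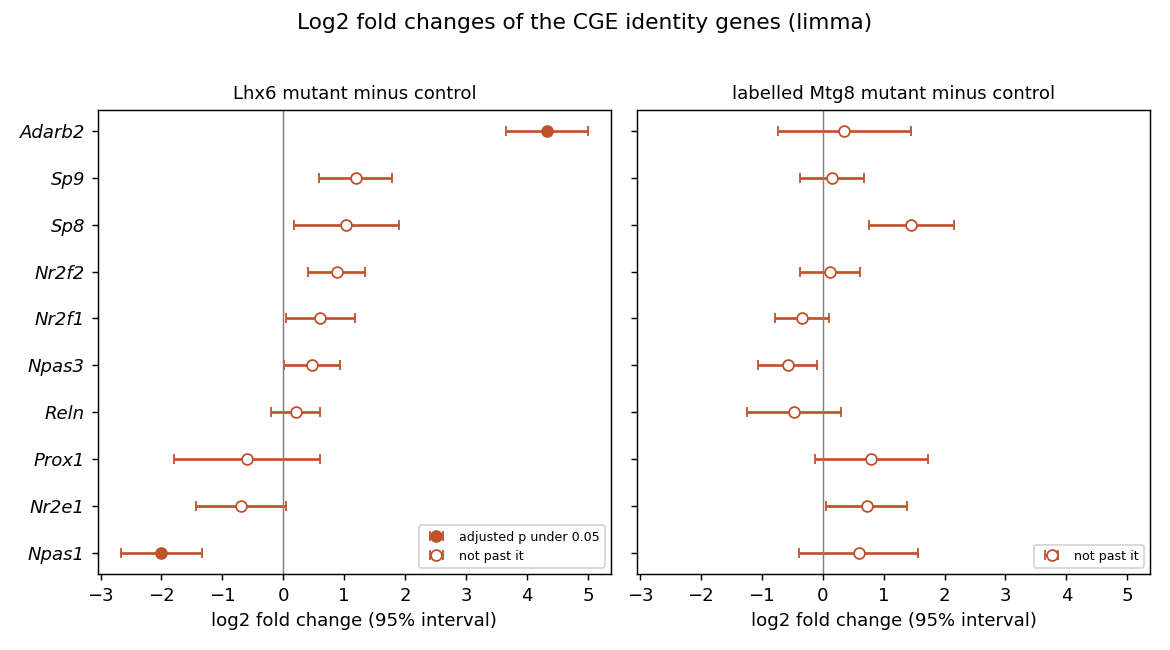
Log2 fold changes (points) with 95% intervals (bars) for the 10 genes in *Lhx6* mutants (left) and in the libraries labelled *Mtg8* mutant (right), each against its own controls. Filled points passed an adjusted p under 0.05 in limma, which holds for *Adarb2* (4.33) and *Npas1* (-2.0) in the *Lhx6* table and for no gene in the *Mtg8* table.

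The genes of CGE-derived subtypes gave no call in the *Mtg8* table either. The largest differences among 12 tested subtype genes were -1.15 for *Igf1* (adjusted p = 0.741) and 0.88 for *Calb2* (adjusted p = 0.859), whose groups did not overlap, and *Cxcl14* and *Ndnf* had -0.36 and 0.02. The CGE-enriched array list without the 10 genes had a median of 0.06 over 642 genes and the MGE-enriched list one of -0.19 over 571, against -0.01 for all genes. *Sst* (-1.34, adjusted p = 0.0713) and *Npy* (-1.13, adjusted p = 0.580) had the largest differences of 15 MGE identity genes. The lateral eminence genes *Isl1* and *Ebf1* had -1.30 and 1.19, the class genes *Dlx2* and *Dlx1* had 0.99 and -0.67, and the family relatives *Dab1* and *Adar* had 0.52 and -0.51, with adjusted p-values of 0.859 to 0.885. Of the markers of other cells, *Emx1* (1.59) and *Neurod2* (1.16) led the pyramidal list, whose 10 genes were all above 0. *Hes1* (1.02) and *Hes5* (0.89) led the progenitor list, *Lhx1* (0.97) and *Nhlh2* (0.86) the Cajal-Retzius list and *Olig2* (2.23) and *Pdgfra* (2.05) the oligodendrocyte precursor list. *Cx3cr1* (0.86) and *C1qa* (0.80) led the microglial list, though their mean normalized counts were lower in labelled mutants. *Cx3cr1* went from 80.1 to 24.1 and *C1qa* from 17.5 to 8.97, with control libraries from 0 to 234 and from 0 to 50.1. *Kdr* (1.6) and *Cldn5* (0.66) led the vascular list and *Hbb-y* (5.23) and *Hba-a2* (0.38) the blood list. The groups of *Hbb-y* overlapped, at 0 to 259 normalized counts in controls and 86.4 to 455 in labelled mutants. Those of *Olig2* overlapped too, at 0 to 10.8 and 4.53 to 37.5, so that control libraries at 0 weighed on both log2 values. All these lists had 0 genes called.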

How the data were processed

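Cortical YFP-positive cells of 15 embryos were sequenced as single reads of 75 bases, 1 embryo per library. Per the methods and labels, the authors used fastp 0.20.1 for trimming, STAR 2.7b for alignment to GRCm38.p6 (mm10) and featureCounts 1.6.4 for counting, then removed sex-linked genes and deposited for each gene a normalized signal, the count divided by the DESeq2 size factor of the library, in a separate table per comparison. The authors' deposited log2 fold changes, p-values and test scores stand in the same tables and were not used. All values were whole multiples of 1 read (100% within 0.01), which gave back the reads for edgeR 4.0.16 and DESeq2 1.42.0. The small number of embryos limits the precision.

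Groups were compared with limma 3.58.1 in R 4.3.3, fitted with a trend to log2(normalized count + 1), two-sided, Benjamini-Hochberg adjusted over all genes with a mean of at least 10, each table alone, at a threshold of 0.05. Exact permutation tests used scipy 1.17.1. The tests were checked on simulated data, where unchanged genes made up a larger share of DESeq2's calls than of limma's in the *Lhx6* design and a like share in the *Mtg8* design. The members and lists were chosen with earlier results of these data known. Named genes were the 10 members, the targeted genes and, per list, at most the 5 called genes or else the 2 tested genes with the largest changes. The values of 1 gene that this rule names are not reported here, and the array lists are given by counts alone. Outside the rule, family relatives were named beside their members, overlapping antisense genes beside the genes they overlap, and *Synpr*, *Igf1*, *Cxcl14*, *Ndnf* and *Lhx8* for comparison, after their values were seen. Levels per kb used the exon length of each gene. Promoters are from RefSeq, and overlaps and shared 75-base stretches from GENCODE M21. The settings varied were the pseudocount (0.5, 10), the filter (none, a mean of 50 or more), the scaling (TMM, equal library totals), the trend (left out), the tool (edgeR, DESeq2), the covariate (replicate block, name style) and the libraries (each left out in turn).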

Additional observations from a re-analysis of the deposited data

Results flagged for a closer look

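*Nr2f1* in *Lhx6* mutants had 1 library far from the others. Mutant 1 had 4350 normalized counts, against 1575 to 2365 in the other 4 mutants. *Nr2e1* in *Lhx6* mutants likewise had 1 such library, mutant 6 with 805 normalized counts against 192 to 265 in the others. Dixon's criterion was applied to 20 groups of 4 or 5 embryos and was passed by these 2, and chance alone passes about 1 group in 20.

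*Nr2f1* lay on opposite sides of the controls in the 2 comparisons. All 5 *Lhx6* mutants were above their control mean (log2 difference 0.61) and all 3 libraries labelled *Mtg8* mutant were below theirs (log2 difference -0.35). Whether these values differ from each other was not tested, since each table was normalized on its own.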

How the results depend on the processing

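In the *Lhx6* table, *Adarb2* was called under all 20 alternatives (3.91 to 4.50 on the log2 scale), and *Npas1* kept its direction in all (-2.47 to -1.68) and was lost with name style as a covariate (adjusted p = 0.416). The number of the 10 genes called was 2 in the main test (1.71% of all genes) and 5 with DESeq2 (4.53%). It was 2 to 6 when single libraries were left out, the 6 without mutant 6 (2.93%). With name style as a covariate, when the effect is that of mutant 6, the values of *Prox1* (0.34), *Npas3* (-0.31), *Nr2e1* (0.73) and *Reln* (-0.051) changed sign, *Sp9* (0.63), *Nr2f2* (0.46) and *Nr2f1* (0.12) were lower and *Sp8* (2.15) was higher. *Sp9* was also called with a pseudocount of 10 (adjusted p = 0.0432), a minimum mean of 50 (0.0399) or equal library totals (0.0488). In the *Mtg8* comparison 0 of the 10 were called in the main test (0% of all genes) and 1 with DESeq2 (*Sp8*, against 0.191%). It was 0 to 0 when single libraries were left out. There *Nr2f2* (-0.093 to 0.24 over the libraries left out) and *Adarb2* (-0.071 to 0.85) changed sign without labelled mutant 2 and *Sp9* (-0.11 to 0.35) without labelled mutant 4. The cause of these differences was not tested. *Adarb2* had no value in the *Mtg8* table at a minimum mean of 50, since its mean there was below it.

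Over all genes, 286 were called in the *Lhx6* table and 811 with DESeq2, 86 with the replicate block, 57 with name style, 159, 174 and 173 without controls 1, 2 and 4, and 492 without mutant 6. In the *Mtg8* table, against 0, these were 31 with DESeq2, 1 with edgeR, 1 with no filter, 2 at a minimum mean of 50, 100 with the replicate block, 1 without control 1 or 2 and 87 without labelled mutant 2. Other scaling moved the median of all genes by less than 0.1. Embryos with the same replicate number are different animals. Their deviations from the group means correlated at -0.15 to 0.07 over 3 pairs (*Lhx6*) and at 0.14 and 0.16 over 2 pairs (*Mtg8*). Pairs with different numbers gave -0.21 to 0.18 over 17 pairs (*Lhx6*) and -0.18 to 0.08 over 7 pairs (*Mtg8*). Both same-number values of the *Mtg8* table were above all of its others. The labels state no pairing by number, and the main test used none. With the replicate block, 2 of the 10 genes were called in the *Lhx6* table (*Adarb2* and *Npas1*) and 0 in the *Mtg8* table. The block moved *Sp8* to 0.58, *Prox1* to -1.09, *Nr2e1* to -1.09 and *Reln* to 0.36 in the *Lhx6* table and *Adarb2* to 1.17 (adjusted p = 0.448), *Nr2f2* to 0.31 and *Sp9* to 0.24 in the *Mtg8* table. There name style as a covariate gave 0.72 for *Adarb2*, 0.26 for *Nr2f2*, 0.079 for *Sp9* and -0.14 for *Reln*, and equal library totals gave 0.19 for *Nr2f2*. *Prox1* in the *Lhx6* table was -0.38 with edgeR and -0.37 with DESeq2. Depth left every *Lhx6* value of *Adarb2* above the floor of 3 reads, its lowest library having 15.7 normalized counts.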
